A study of Homo sapiens with 6 samples.

Results

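Regions of open chromatin that set CCRF-CEM apart from 5 other T-cell acute lymphoblastic leukaemia (T-ALL) lines were described from ATAC-seq peak lists. CCRF-CEM is an established line of leukaemic T lymphoblasts. It was set against TALL-1, MOLT-4, KOPT-K1, HBP-ALL and DND-41. All 6 were grown in RPMI medium with no further treatment named in the labels, and each was represented by 1 library. The overlapping intervals of all 6 lists on chromosomes 1 to 22 and X were merged into 40110 regions. The members, 7391 of these regions, were chosen by the presence or absence of a called interval in each list and by no other value. They comprised 6420 regions with an interval of CCRF-CEM and of no other line, called CCRF-CEM-only regions. The other 971 held intervals of all 5 other lines and none of CCRF-CEM, and are called missing regions. The 9053 regions with intervals of every line, called six-line regions, served as landmarks.

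ATAC-seq cuts and tags DNA that is not wrapped tightly in nucleosomes, so that a peak marks an accessible promoter, enhancer or other regulatory element. Promoters of widely used genes tend to be open in most cell types, whereas distal enhancers differ more between cell types and between stages of T-cell development. Where a list has no interval, nothing there passed the authors' calling threshold, which is not a measurement of closed chromatin. No annotation or genome of build hg19, in which the lists are written, was used here, so positions are given without genes or bases, and the labelled cell type was not checked against marker loci.

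With 1 library per line no difference between lines could be tested, and cell line and library preparation cannot be told apart. The lists held 22367 intervals in CCRF-CEM and 16507 to 22055 in the other lines. The read totals are not known here. A relative tag depth, derived from the lowest background in each list and set to 1 in CCRF-CEM, ran from 1.35 to 2.096 in the other lines. The library with the lowest relative depth was thus also the one with the most intervals, and the part of depth in the results was not tested. Exact binomial (Clopper-Pearson) 95% intervals are given for shares, and they cover counting error only.

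CCRF-CEM-only regions made up 16.0% of all merged regions and 28.9% of the 22213 regions with a CCRF-CEM interval. The corresponding share of a line's own regions was 21.3% in HBP-ALL and 8.04% to 9.62% in the remaining 4 lines. Missing regions made up 2.42% of all merged regions and 9.69% of the 10024 regions with intervals of all 5 other lines. The same share, counted for each other line in turn, was 6.51% in TALL-1 and 2.38% to 3.17% in the remaining 4 lines. CCRF-CEM thus had the highest share of both kinds in these lists. These counts follow from the rule that chose the regions and are given as a description. With equal numbers of the strongest intervals from every list, 3792 regions were CCRF-CEM-only and 1292 were missing. With a −log10 p of at least 10 in every line that defines a member there were 3393 CCRF-CEM-only and 372 missing regions.

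CCRF-CEM-only intervals were narrow and weak beside the other intervals of the same list. Their median width was 320.5 bp (order-statistic 95% interval 316 to 324), against 596.5 bp (590 to 604) for CCRF-CEM intervals in six-line regions. Line-only intervals of the other lines were narrow as well, with medians of 281.5 to 307 bp against 663 to 705 bp in six-line regions. Several summits were listed for 2.68% of CCRF-CEM-only intervals, against 15.95% in six-line regions. The pileup is the count of tags over the summit, and its median was 13 at CCRF-CEM-only intervals and 31 at six-line intervals. The median −log10 p given by the authors was 10.5 at CCRF-CEM-only intervals and 24.7 at six-line intervals. CCRF-CEM-only intervals stood at a median percentile of 28.4 of the CCRF-CEM list, and line-only intervals of the other lines at 14.3 to 22.8 of their own lists. Among the 1000 strongest CCRF-CEM intervals 16 were CCRF-CEM-only, and in the other lines 1 to 4 of the 1000 strongest were line-only.

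The missing regions were likewise weaker and narrower than six-line regions. In DND-41 the median width was 471 bp at missing regions and 696 bp at six-line regions. HBP-ALL had 512 bp against 705 bp, KOPT-K1 450 bp against 663 bp, MOLT-4 486 bp against 686 bp and TALL-1 474 bp against 670 bp. All 5 lines thus showed narrower intervals at missing regions, with quartiles that overlapped those at six-line regions. The joined intervals of the 5 lines had a median width of 702 bp (687 to 722) at missing regions and 870 bp (865 to 878) at six-line regions. Median pileups at missing regions were 25 in TALL-1, 21 in MOLT-4, 20 in KOPT-K1, 24 in HBP-ALL and 21 in DND-41, against 44, 36, 36, 39 and 40 in the same lines at six-line regions.

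**Figure D1:**
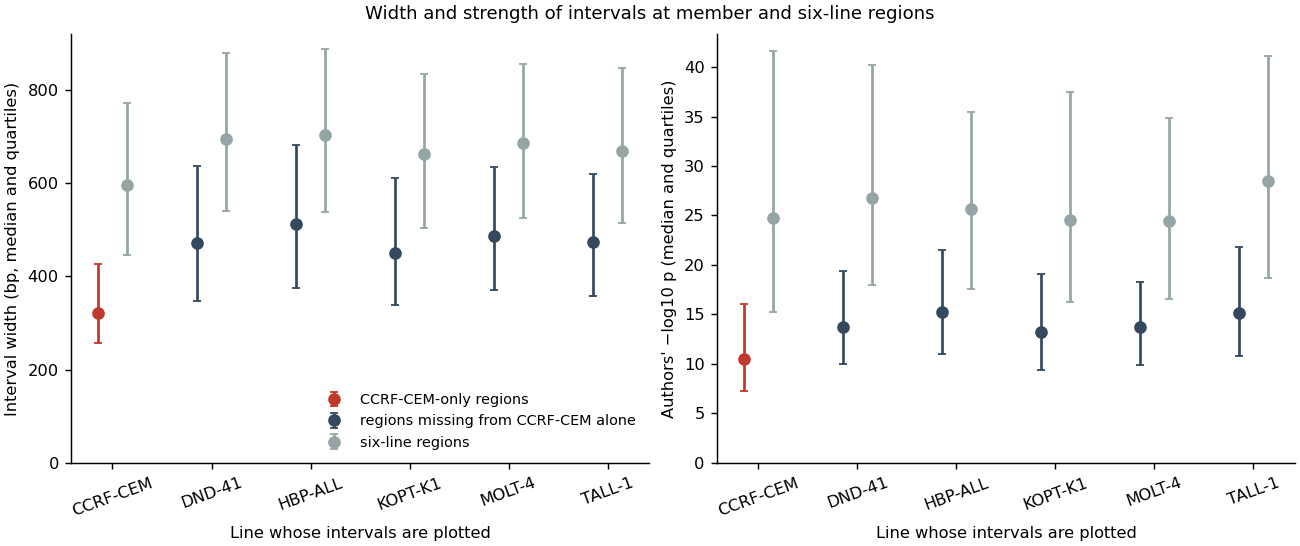
Width in bp (left) and the authors' −log10 p (right) of intervals at member regions, drawn left of the six-line regions of the same line; points are medians and bars are quartiles over intervals. CCRF-CEM-only intervals have a median width of 320.5 bp against 596.5 bp, and missing regions lie below six-line regions in each of the 5 other lines.

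Most missing regions were weak in at least 1 of the other lines. In 599 of the 971 (61.7%) the weakest of the 5 lines had a −log10 p under 10, which was true of 1582 of the 9053 six-line regions (17.5%). Another 327 had their weakest value between 10 and 20. In 45 (4.63%) every other line reached 20 or more, against 3783 six-line regions (41.8%). Stated the other way, 27.5% of the regions whose weakest other line was under 10 were missing from CCRF-CEM (25.6% to 29.4%). This share was 8.14% between 10 and 20 and 1.18% (0.859% to 1.57%) from 20 upwards.

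CCRF-CEM-only regions lay far from the regions that all lines shared. The median distance to the nearest six-line region was 207.9 kb (197.7 to 218.7), and 4276 of 6420 (66.6%; 65.4% to 67.8%) were more than 100 kb away. In HBP-ALL-only regions the median was 116.2 kb and 53.6% (52.2% to 55.1%) were that far, and in TALL-1-only regions 75.4 kb and 42.4% (39.9% to 45.0%). The lines DND-41, KOPT-K1 and MOLT-4 lay between these, at 49.3% to 52.5%. Regions that CCRF-CEM shared with 1 to 4 other lines had a median distance of 100.2 kb, and 50.1% of them were over 100 kb away. More than 1 Mb separated 831 CCRF-CEM-only regions (12.9%) from a six-line region, against 6.70% of the HBP-ALL-only and 3.62% of the TALL-1-only regions. Within 1 kb of a six-line region there were 31 CCRF-CEM-only regions (0.483%), against 62 HBP-ALL-only regions (1.33%).

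Distance went with strength among the CCRF-CEM-only regions themselves. Of the 3027 with a −log10 p under 10, 64.7% (63.0% to 66.4%) lay over 100 kb from a six-line region. The share was 66.0% of the 2388 between 10 and 20, and 72.9% of the 939 between 20 and 50. Among the 66 regions at 50 or above it was 86.4% (75.7% to 93.6%), with a median distance of 456.7 kb. The class of the strongest members was thus the most remote, and its median width was 611.5 bp, against 286 bp for those under 10.

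Missing regions lay closer to shared ones than CCRF-CEM-only regions did. Their median distance to a six-line region was 43.2 kb (39.4 to 46.9), and 149 of 971 (15.3%; 13.1% to 17.8%) were within 10 kb. For comparison, the median was 61.7 kb for regions missing from HBP-ALL alone, with 10.1% (6.94% to 14.2%) within 10 kb. Regions missing from TALL-1 alone had a median of 92.1 kb, with 6.83% (4.98% to 9.08%) within 10 kb. The share within 10 kb was 14.5% (10.1% to 19.8%) for DND-41, 12.3% (8.65% to 16.7%) for KOPT-K1 and 12.00% (8.06% to 16.98%) for MOLT-4. The intervals of these 3 lines and of HBP-ALL overlapped that of CCRF-CEM, and the interval of TALL-1 did not. Median distances were 62.7 kb for DND-41, 55.2 kb for KOPT-K1 and 68.65 kb for MOLT-4. The intervals of the KOPT-K1 median (46.7 to 70.2) and the HBP-ALL median (46.8 to 78.1) overlapped that of CCRF-CEM. With a −log10 p of at least 10 in every list, 9.25% were within 10 kb for CCRF-CEM and 9.78% for DND-41. A six-line region had its next six-line neighbour at a median of 51.4 kb, and 10.7% had one within 10 kb. More than 100 kb away were 26.5% of missing regions and 28.8% of six-line regions. Only 5 missing regions (0.515%) were more than 1 Mb from a six-line region.

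**Figure D2:**
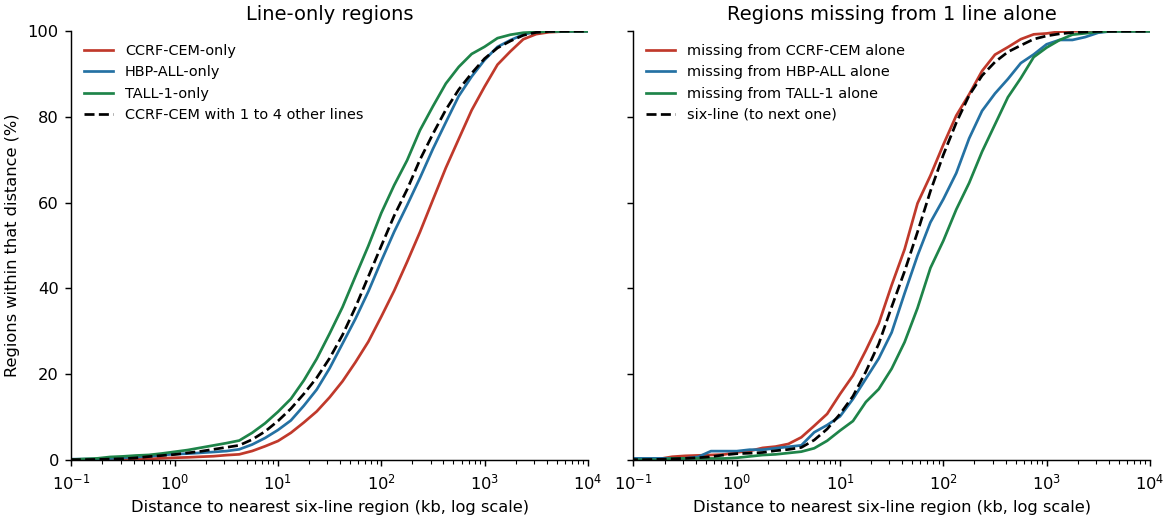
Cumulative share of regions (%) by distance to the nearest six-line region (kb, log scale), for line-only regions (left) and regions missing from 1 line alone (right). From 10 kb upwards the curve of CCRF-CEM-only regions lies to the right of HBP-ALL-only and TALL-1-only regions, and regions missing from CCRF-CEM lie to the left of those missing from HBP-ALL or TALL-1, while curves cross at shorter distances.

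The number of six-line regions within 500 kb on each side gave the local density of shared peaks. Where there was none, 1786 of 3163 CCRF-CEM regions (56.5%; 54.7% to 58.2%) were CCRF-CEM-only. This share was 37.4% with 1 to 2 six-line regions nearby, 24.9% with 3 to 5, 17.02% with 6 to 10 and 9.97% (8.78% to 11.3%) with 11 or more. All other lines also had their highest line-only share in the sparsest class, with 40.5% in HBP-ALL and 15.9% to 17.98% in the remaining 4. The six-line regions that define the classes are counted among each line's regions and make up more of them in denser classes. Part of this fall with density is therefore built into the share, in every line. In the densest class HBP-ALL stood at 10.9% (9.77% to 12.1%), so that CCRF-CEM and HBP-ALL did not differ there beyond counting error.

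The missing regions ran the opposite way. CCRF-CEM lacked 25 of 376 regions of the 5 other lines (6.65%; 4.35% to 9.66%) where no six-line region was nearby. The share missing was 8.19% with 1 to 2, 9.19% with 3 to 5, 10.0% with 6 to 10 and 11.9% (10.4% to 13.4%) with 11 or more. In TALL-1 the share went down along the same classes, with 17.8%, 10.6%, 6.64%, 4.66% and 2.64%. Each of the other 4 lines had a lower share in the densest class than in the sparsest, ending at 0.674% to 2.58%. The six-line regions are part of this denominator as well, so that a lower share in dense classes is partly built in.

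For CCRF-CEM, regions with intervals of 1 to 4 other lines are no members, and its presence in them was not used by the rule. CCRF-CEM had an interval in 31.5% (29.9% to 33.1%) of these where no six-line region was near. With rising density its share was 30.0%, 28.4%, 26.6% and 24.3% (22.3% to 26.3%). In the same order of density, HBP-ALL was present in 19.6%, 27.8%, 32.6%, 38.0% and 44.4% of the regions that 1 to 4 lines other than HBP-ALL held. TALL-1 ran from 8.40% in the sparsest to 40.2% in the densest class, and DND-41, KOPT-K1 and MOLT-4 were each higher in the densest class as well. The sets of the other lines do include members, however. CCRF-CEM-only regions lack each of these lines by the rule, and missing regions hold it. In HBP-ALL, CCRF-CEM-only regions were 1786 of 4237 in the sparsest class and 229 of 1944 in the densest. The comparison of CCRF-CEM with the other lines is thus partly fixed by the rule, and the lines are not ranked by it.

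**Figure D3:**
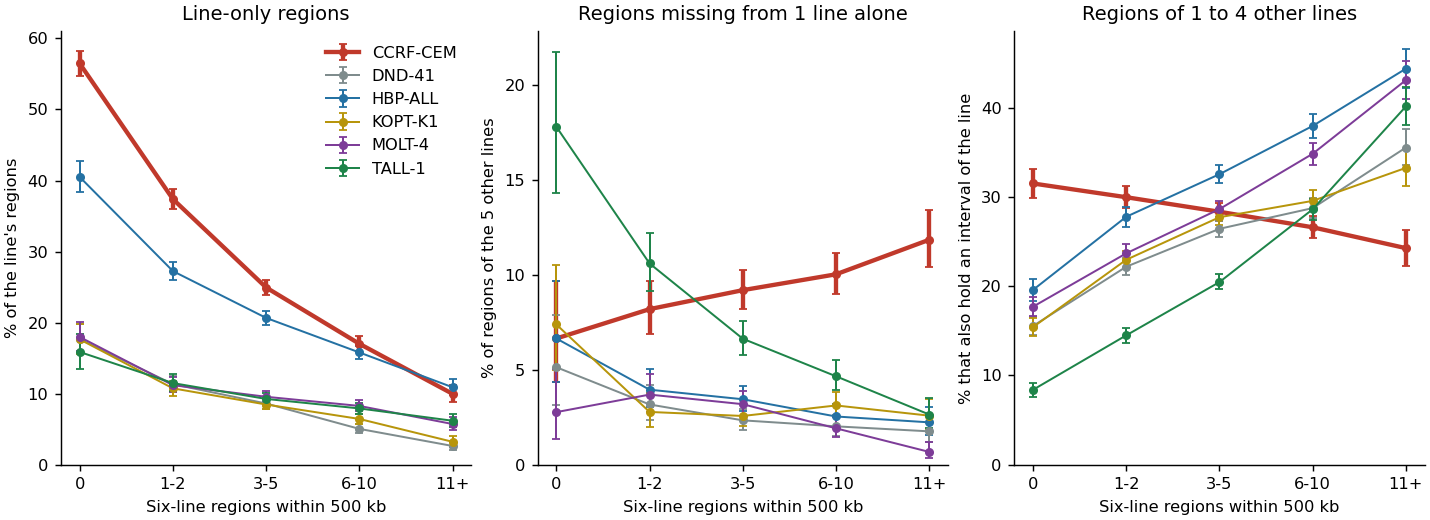
Shares (%) by the number of six-line regions within 500 kb, for line-only regions (left), regions missing from 1 line alone (middle) and presence of a line in regions held by 1 to 4 other lines (right); bars are exact 95% intervals. In the middle and right panels CCRF-CEM slopes against the other lines, with 11.9% missing and 24.3% present in the densest class. In the right panel the sets of the other lines include members, so the rule partly fixes their values.

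Peak heights at six-line regions, where every line had an interval, were not used by the rule either. The relative pileup is the log2 pileup of a line minus the mean log2 pileup of the 5 others, centred on that line's median over 9045 regions. In CCRF-CEM its median was 0.58 at six-line regions with no other within 500 kb (quartiles 0.12 and 0.94, 349 regions). It was 0.35 with 1 to 2 neighbours, 0.17 with 3 to 5, −0.12 with 6 to 10 and −0.43 (quartiles −0.77 and −0.07, 1621 regions) with 11 or more. MOLT-4 ran from −0.25 in the sparsest to 0.28 in the densest class and TALL-1 from −0.34 to 0.22, and HBP-ALL likewise from −0.18 to 0.09. DND-41, from 0.14 to −0.08, and KOPT-K1, from 0.10 to −0.10, were lower in the densest class than in the sparsest, as was CCRF-CEM. The CCRF-CEM medians spanned the widest range of the 6 lines. The 6 lines are tied together in this measure, as each is set against the mean of the rest.

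Six-line regions near a member differed in the same direction. With a CCRF-CEM-only region within 50 kb and no missing one, the median relative pileup of CCRF-CEM was 0.22 (quartiles −0.21 and 0.61, 1385 regions). With a missing region within 50 kb and no CCRF-CEM-only one it was −0.40 (quartiles −0.83 and 0.07, 663 regions), and with neither −0.01 (6887 regions). The quartiles overlapped. The other lines showed the same order around their own regions, with medians of 0.03 to 0.22 near a line-only region and −0.22 to −0.10 near a missing one. Within the densest class the CCRF-CEM medians were −0.22, −0.68 and −0.42 in this order, and within the class of 3 to 5 neighbours 0.32, 0.04 and 0.14. In the class of 1 to 2 neighbours the 48 regions near a missing one stood at 0.40, above the 0.30 of regions near neither.

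**Figure D4:**
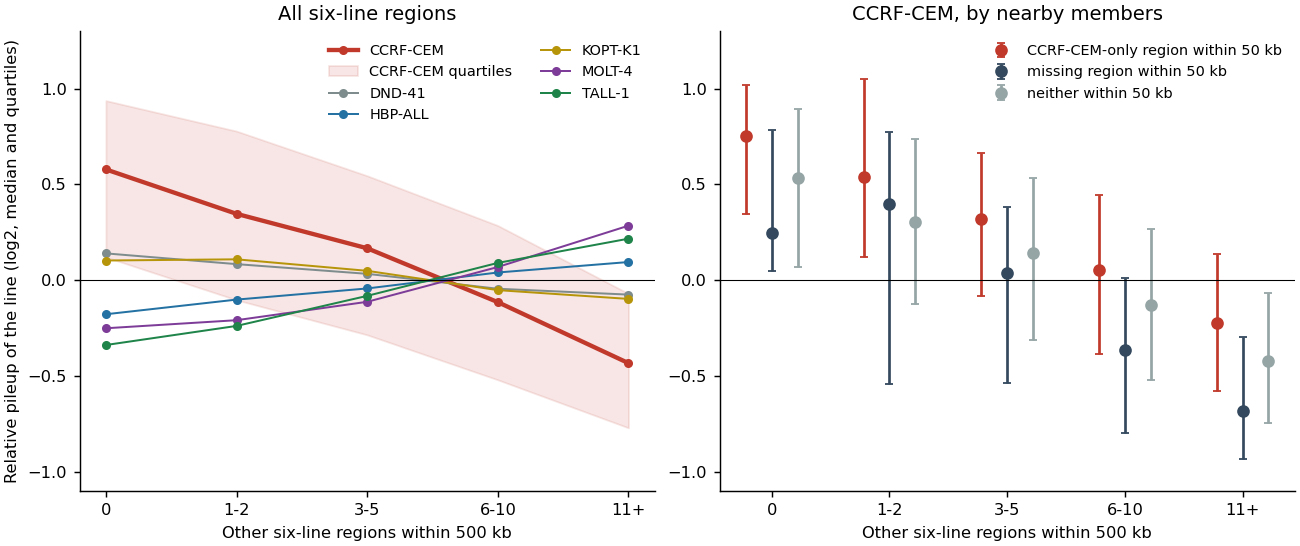
Relative pileup (log2) at six-line regions against the number of other six-line regions within 500 kb: medians of all 6 lines with CCRF-CEM quartiles shaded (left), and CCRF-CEM medians with quartile bars by the kind of member within 50 kb (right). CCRF-CEM runs from 0.58 to −0.43, and in 4 of the 5 density classes regions near a missing region lie below those near neither kind.

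By chromosome, CCRF-CEM-only regions formed between 2.86% of CCRF-CEM regions on chromosome 19 and 39.3% on chromosome 4. Chromosome 19 also had the lowest line-only share in DND-41 (1.89%), HBP-ALL (10.1%), KOPT-K1 (1.505%) and MOLT-4 (6.19%), but not in TALL-1, and chromosome 4 had the highest in KOPT-K1. In CCRF-CEM chromosomes 13 and 18 followed chromosome 4, with 39.2% and 38.7%. The lowest shares after chromosome 19 were 7.18% on chromosome 17, 8.40% on chromosome 22 and 12.5% on chromosome 16. As background, chromosomes 16, 17, 19 and 22 are rich in genes, while 4, 13 and 18 are poor in them. On 17 of 23 chromosomes the share was above that of every other line. The exceptions were chromosomes 15, 16, 17, 19, 21 and 22.

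The missing share was highest on chromosomes 19 and 17, which were already known to hold few CCRF-CEM peaks when the measures were chosen. On chromosome 19 CCRF-CEM lacked 128 of 585 regions of the 5 other lines (21.9%; 18.6% to 25.5%), and the other lines lacked 0.218% to 3.38%. On chromosome 17 it lacked 96 of 499 (19.2%; 15.9% to 22.98%), and the other lines 0.739% to 4.95%. Chromosome 16 came next, with 13.1% (9.91% to 16.8%). Both chromosomes together held 224 missing regions, 23.1% of all, and 57 CCRF-CEM-only regions, 0.888% of all. They held 1084 of the 10024 regions of the 5 other lines and 1131 of the 22213 CCRF-CEM regions. On the remaining chromosomes the missing share was 8.36% (7.79% to 8.95%). Taken singly, 13 of 23 chromosomes had a missing share above that of every other line. On the rest another line was level with CCRF-CEM or higher. The missing share on chromosomes 17 and 19 depended on the intervals admitted. It was 35.5% for equal numbers of the strongest intervals and 10.9% where every defining line had to reach a −log10 p of 10. The CCRF-CEM-only share there was 5.04%, against 1.64% and 1.503% under these settings. As deposited, the line-only share there was 2.70% to 12.2% in the other lines, a range that holds the CCRF-CEM value. Across the 23 chromosomes the CCRF-CEM shares of the 2 kinds had a Spearman correlation of −0.31, and chromosome 22 had few CCRF-CEM-only regions without a high missing share (9.09%).

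The excess on chromosomes 17 and 19 was present among weak and moderate regions. Where the weakest other line was under 10 in −log10 p, CCRF-CEM lacked 139 of 304 (45.7%; 40.0% to 51.5%) there and 24.5% (22.6% to 26.5%) elsewhere. Between 10 and 20 it lacked 81 of 556 (14.6%; 11.7% to 17.8%), against 7.11% (6.28% to 8.02%). From 20 upwards it lacked 4 of 224 (1.79%; 0.489% to 4.51%), against 1.14% (0.818% to 1.54%), which did not differ beyond counting error. Peak heights did differ at regions that CCRF-CEM held. At six-line regions its median relative pileup was −0.77 on chromosome 17 (403 regions) and −0.81 on chromosome 19 (457 regions). Chromosome 16 followed with −0.51, and the highest was 0.47 on chromosome 3. The other lines ran from −0.31 in KOPT-K1 to 0.55 in MOLT-4 on chromosome 19, and from −0.21 in DND-41 to 0.49 in MOLT-4 on chromosome 17. On other chromosomes some of them had medians as far from the centre. KOPT-K1 stood at −0.83 and TALL-1 at 1.27 on chromosome 21, and MOLT-4 at −0.72 on chromosome 18. The 16 CCRF-CEM-only regions of chromosome 19 were all weak, with −log10 p up to 9.62.

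**Figure D5:**
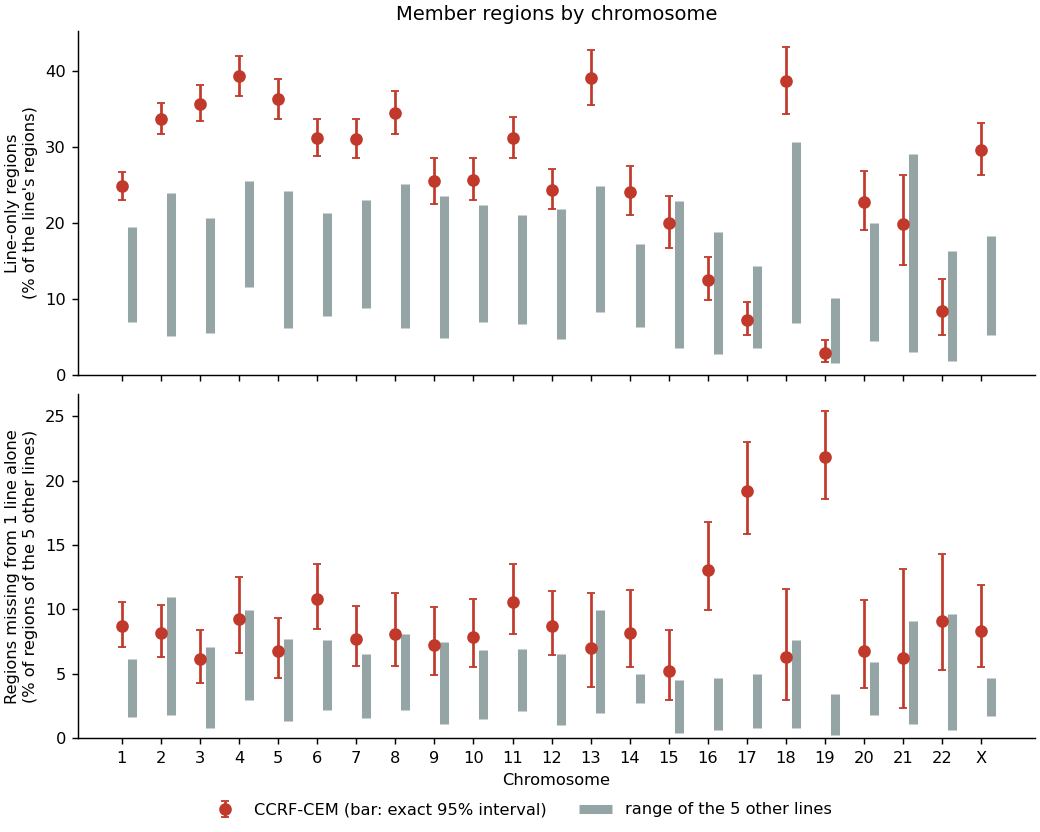
Share (%) of CCRF-CEM regions that are CCRF-CEM-only (top) and share of regions of the 5 other lines that CCRF-CEM lacks (bottom) by chromosome; red points carry exact 95% intervals and grey bars span the same shares of the 5 other lines. Chromosome 19 has the lowest top value, 2.86%, and the highest bottom value, 21.9%.

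The next CCRF-CEM-only region was within 100 kb for 48.9% (47.7% to 50.1%), with a median spacing of 104.8 kb. In a set of similar size, the 6740 regions that CCRF-CEM shared with 1 to 4 other lines, 52.8% (51.6% to 54.0%) had another within 100 kb and the median spacing was 90.8 kb. By this measure CCRF-CEM-only regions were no closer together than other CCRF-CEM regions. The share was 40.5% for the 4654 HBP-ALL-only and 25.3% for the 1490 TALL-1-only regions, but spacing depends on how many regions a set holds. Among all merged regions in order, 3072 members (47.9%) stood next to another, in 1160 runs of 2 or more. Of these runs 78 had 5 or more members, against 11 in HBP-ALL and 0 or 1 in the other lines. The share of line-only regions in runs of 2 or more was 31.0% in HBP-ALL and 13.9% to 16.5% in the remaining lines. Counts of runs and windows, and shares in runs, depend on set size too, and no set of similar size was compared for them. Among windows of 1 Mb, 2243 of 2852 held at least 1 CCRF-CEM-only region and 381 held 5 or more. Windows without a six-line region, 796 of the 2852, held 1865 of the 6420.

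The longest run was 11 CCRF-CEM-only regions in a row on chromosome X, from 88818233 to 93459847. In these 4641.6 kb no other line had an interval. The −log10 p values there ran from 5.08 to 49.2, and the strongest region, at 92928062 to 92928965, had a pileup of 62. The run also held the 5 CCRF-CEM-only regions farthest from a six-line region, at 6150.4 to 7374.8 kb. Runs of 10 lay on chromosome 3 from 76418258 to 77397762 and on chromosome 8 from 110876042 to 112262450. In the run on chromosome 8 a region at 111072647 to 111072970 stood out with a pileup of 59, while the other 9 had 9 to 26.

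The window with the most CCRF-CEM-only regions, 12, was on chromosome 7 from 112000001 to 113000000. CCRF-CEM had 23 regions in it, and the other lines had 8 in TALL-1, 10 in MOLT-4, 8 in KOPT-K1, 11 in HBP-ALL and 9 in DND-41. On chromosome 5, from 21000001 to 22000000, CCRF-CEM had 12 regions, of which 11 were its own, and the other lines had 1 to 3. Windows with 11 also lay on chromosome 1 from 76000001, on chromosome 2 from 122000001 and on chromosome 7 from 16000001. HBP-ALL reached the same maximum of 12 line-only regions in a window. It had 164 windows with 5 or more, from a smaller set of line-only regions (4654 against 6420).

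Missing regions clustered in other places. Their densest window, on chromosome 19 from 12000001 to 13000000, held 11 of them and 9 six-line regions. CCRF-CEM had 10 regions there, against 34 in TALL-1, 27 in MOLT-4, 25 in KOPT-K1, 26 in HBP-ALL and 24 in DND-41. The next windows held 10 on chromosome 19 from 53000001, 9 on chromosome 17 from 40000001, 8 on chromosome 19 from 58000001 and 7 on chromosome 11 from 65000001. As background, chromosome 19 carries large clusters of zinc finger genes, and no region was assigned to them here. Of 79 windows with 3 or more missing regions, 34 lay on chromosomes 17 and 19. These chromosomes held 1084 of the 10024 regions with intervals of all 5 other lines. TALL-1 had 17 windows with 3 or more regions missing from it alone, and the remaining lines 1 to 4. Fewer regions were missing from each of these lines than from CCRF-CEM, and the window counts depend on that number.

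Runs of missing regions were counted among the regions that all 5 other lines held. The longest, 5 in a row, spanned 155.6 kb on chromosome 19 from 53038686 to 53194280. At its first region, 53038686 to 53039887, the pileups were 36 in TALL-1, 29 in MOLT-4, 10 in KOPT-K1, 21 in HBP-ALL and 30 in DND-41. At 53141189 to 53142067, they were 32, 32, 26, 26 and 33 in the same order. KOPT-K1 was the lowest line at 3 of these 5 regions and level with HBP-ALL as the lowest at 1 more. A run of 4 lay on the same chromosome from 19932247 to 20150468, with pileups of 16 to 47 over all regions and lines. Another 4 lay within 41.6 kb on chromosome 11 from 67195496 to 67237089, and TALL-1 had the highest pileup at all 4, from 35 to 42.

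Among single CCRF-CEM-only regions the 10 strongest had pileups of 81 to 138. The strongest, on chromosome 1 at 194504214 to 194504859, reached a pileup of 138 and a fold of 17.9, and the nearest six-line region was 1412.6 kb away. On chromosome 9 at 29728631 to 29729103 the pileup was 110, and no other line had an interval within 516.2 kb. On chromosome 3 at 178577759 to 178578287 the fold over background was 22.6, the highest of the 10, with a pileup of 81. The same chromosome held regions at 19853086 to 19853669 and 167658931 to 167659797, with pileups of 114 and 108. On chromosome 7 at 12443039 to 12444025 the pileup was 117. Of the 10, 3 lay on chromosome 1, 3 on chromosome 3 and 2 on chromosome 9.

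The widest CCRF-CEM-only interval was 1483 bp, on chromosome 5 at 88178685 to 88180167. It was weak for its width, with a pileup of 27 and a fold of 5.16. The third widest, on chromosome 8 at 114991325 to 114992650, measured 1326 bp and had a pileup of 71.

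Missing regions were ranked by the lowest percentile they had in any of the 5 other lists. The first, at 85195011 to 85195228 on chromosome 11, was only 218 bp wide, although its lowest percentile was 99.8. No list of artefact-prone regions was applied. The second, on chromosome 7 at 63767356 to 63768293, had pileups of 93 in TALL-1, 53 in MOLT-4, 86 in KOPT-K1, 68 in HBP-ALL and 105 in DND-41, and a CCRF-CEM interval stood 5676 bp away. On chromosome 1 at 232765617 to 232766624 the 5 pileups were close together, at 55 to 64, and the nearest CCRF-CEM interval was 50.9 kb away. On chromosome 2 at 214148858 to 214149549 they ran from 50 in TALL-1 to 99 in KOPT-K1. On chromosome 17 at 53315506 to 53316414 they ran from 44 to 60, and CCRF-CEM had no interval within 182.7 kb.

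The missing regions farthest from any CCRF-CEM interval were a pair on chromosome 17. At 14203947 to 14204805 pileups in the other lines were 36 to 68, and the nearest CCRF-CEM interval was 1282.3 kb away. At 13972360 to 13973110 they were 12 to 34, with a gap of 1050.7 kb. Only these 2 missing regions lay more than 1 Mb from a CCRF-CEM interval, and 119 lay more than 100 kb from one.

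Few members had an interval of the opposing lists within 1 kb, and most had one within 100 kb. Of the CCRF-CEM-only regions, 19 had an interval of another line within 100 bp and 189 within 1 kb, and the median gap was 34.6 kb. Such an interval lay within 10 kb for 21.7% of them and within 100 kb for 76.5%. The closest was 9 bp from another line's interval, on chromosome 5 at 77806176 to 77806484. Just outside the rule, a CCRF-CEM interval on chromosome 9 overlapped MOLT-4 by 3 bp. No missing region had a CCRF-CEM interval within 100 bp, and the smallest gap was 156 bp. Within 1 kb there was one for 2.99% of missing regions, within 10 kb for 24.2% and within 100 kb for 87.7%. In the six-line region nearest to being missing, CCRF-CEM overlapped another line by 171 bp.

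Regions 1 line short of either rule were also counted. CCRF-CEM shared 679 regions with HBP-ALL alone, 485 with MOLT-4, 467 with DND-41, 317 with KOPT-K1 and 225 with TALL-1. As shares of each partner's own regions these were 3.10%, 2.56%, 2.63%, 1.76% and 1.38%. Regions absent from CCRF-CEM and from just 1 further line numbered 271 with TALL-1, 241 with KOPT-K1, 210 with DND-41, 187 with HBP-ALL and 147 with MOLT-4. A CCRF-CEM-only region lay within 100 kb of 27.2% of the missing regions and of 29.7% of the six-line regions.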

How the data were processed

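ATAC-seq peak lists of 6 T-ALL lines, 1 library each, were analysed as deposited. Build hg19 and the tools MACS2 2.1.1.2016030, SAMtools, Picard and Bowtie2 appear in the submitters' processing notes. On settings and any shift for the Tn5 cut, nothing was given in the sources used here. Positions are in hg19, counted from 1. Read as narrowPeak, the deposited lists give for each summit a score, a fold enrichment, and −log10 values for p and q (p-value and q-value), all by the authors. The lists were called per library, and their lowest −log10 p lies at 5 or just above.

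Lines that shared an interval were joined, keeping the strongest summit. Across lines, intervals sharing 1 bp or more were merged. Distances are bases between region ends. The pileup is the whole number of tags t that, with background c, gives the authors' fold as (t + 1) / (c + 1) and their −log10 p as a Poisson tail above t, within 0.001. It was recovered for 99.96% to 99.99% of intervals. For the relative tag depth, each list's lowest background was divided by its smallest width, taken as the fragment length the caller used. Recovery, merging, classes and distances were tested on simulated data. Software was matplotlib 3.10.9, scipy 1.17.1, pandas 2.3.3 and numpy 2.4.6 under Python 3.11.15.

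The members and measures were chosen with earlier results of these data known. Regions are named by a rule: the 10 strongest, 5 widest and 5 remotest CCRF-CEM-only regions, the 10 highest-ranked and 5 remotest missing regions, the 5 fullest windows and 3 longest runs of each kind, and the 3 nearest to the border of the rule, of which some are printed. No p-value is given. Other thresholds, overlaps and left-out lines were tried. Gene names and sequences are not reported, since no annotation or genome of hg19 was used here.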

Additional observations from a re-analysis of the deposited data

Results flagged for a closer look

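The share of regions on chromosomes 17 and 19 that CCRF-CEM lacked while all 5 other lines held them was 20.7% (exact 95% interval 18.3% to 23.2%). In the other lines the same share was 0.463% to 4.13%. The gap between CCRF-CEM and the next line took 0.819 of the whole range of the 6 lines, which is why it is listed here. The other 7 measures compared over the 6 lines had ratios of at most 0.537. The chromosomes were singled out with earlier results of the same lists known, and the share comes from the calls that chose the regions, so the ratio is a description and no chance rate applies to it.

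CCRF-CEM also had 5 mitochondrial intervals, which no comparison used. The other lines had 5 or 6.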

How the results depend on the processing

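Linking intervals only where they overlapped by 50% of the shorter one, joining those up to 500 bp apart, and replacing each by its summit with 250 bp on each side left the results within 1.5 times (counts) or within counting error (shares and width). The width has no meaning for fixed windows and was left out there. With a −log10 p of at least 10 in every list there were 4391 CCRF-CEM-only and 757 missing regions. Of the CCRF-CEM-only regions 70.4% were then over 100 kb from a six-line region, and 9.25% of missing regions were within 10 kb of one. The median width of CCRF-CEM-only intervals was 371 bp and 40.2% had another within 100 kb. On chromosomes 17 and 19 27.4% of regions were then missing and 2.32% of CCRF-CEM regions were line-only. With equal numbers of the strongest intervals there were 3792 CCRF-CEM-only and 1292 missing regions. The same shares and width were 69.6%, 10.8%, 368 bp, 37.3%, 35.5% and 1.64%. Requiring a −log10 p of at least 10 only of the lines that define a member gave 3393 CCRF-CEM-only and 372 missing regions, with 68.3%, 12.9%, 365 bp, 35.9%, 10.9% and 1.503%. The first 2 of these settings admit fewer intervals and the last admits fewer members, by construction. At the raised threshold the share of missing regions within 10 kb was 9.25% in CCRF-CEM and 9.78% in DND-41, so that CCRF-CEM was no longer the highest. With regions of all 5 other lines as landmarks, an alternative chosen after seeing the data, 64.9% of CCRF-CEM-only regions were over 100 kb away and 18.2% of missing regions within 10 kb.

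Leaving out each other line in turn gave 6647 to 7109 CCRF-CEM-only and 1121 to 1243 missing regions. The share over 100 kb away ran from 63.1% to 65.6%, that of missing regions within 10 kb from 13.8% to 17.1%, and the median width from 321 to 323 bp. The share with another within 100 kb ran from 49.5% to 51.9%. On chromosomes 17 and 19 the missing share ran from 21.7% to 24.5% and the line-only share from 5.13% to 6.63%. No paired analysis was possible because each line had 1 library.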
